A study of Bos taurus with 33 samples.

Results

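Transcripts for the lysosomal cathepsins CTSA, CTSB, CTSC, CTSD, CTSH, CTSK, CTSS and CTSZ and for the cystatins CST3 and CSTB were examined in bovine oocytes and in their cumulus cells (CC). Members were chosen by gene symbol, and the oocyte and CC data were joined by Ensembl identifier. The 10 symbols correspond to 11 of the 17543 genes listed in either cell type, because CSTB is the symbol of 2 entries (ENSBTAG00000000524 and ENSBTAG00000018189). All 10 symbols were found. Levels are in CPM, the reads of a gene scaled to a library total of 1000000. A filter of 5 CPM or more, met by 4 or more oocyte pools, retained 8 of the 11 entries in oocytes, all but CTSH, CTSK and CTSS. The same level in at least 5 CC pools retained 10 of the 11 entries in CC, all but CTSH.

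Each of the 33 libraries came from a pool of 4 oocytes, or the CC that had surrounded 4 oocytes, aspirated from preovulatory follicles of suckled, postpartum Hereford-Angus beef cows. All cows received gonadotropin releasing hormone (GnRH) on day -9 and prostaglandin F2 alpha on day -2. Small follicles (at most 11.7 mm) and large follicles (at least 12.7 mm) came from cows without estrus that received a second GnRH injection on day 0. Spontaneous follicles (11.7 to 14 mm) came from cows that expressed estrus, had their own gonadotropin surge and received no second injection, so GnRH treatment and estrus cannot be told apart from class in comparisons with this group. Complexes were collected about 23 h after the injection or estrus, according to the protocol (a stage label gives about 20 h). There were 6 small, 6 large and 4 spontaneous oocyte pools, and 6 small, 6 large and 5 spontaneous CC pools. Each library combines 4 complexes, so p-values measure the spread among pools rather than among single complexes.

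Cathepsins are proteases of the lysosome. Most are cysteine proteases, whereas CTSD is an aspartic protease and CTSA a serine carboxypeptidase. They are made as inactive precursors, carried to the lysosome largely by mannose 6-phosphate receptors and activated by cleavage in the acidic interior. Cystatins bind and block cysteine cathepsins: CST3 (cystatin C) is secreted, and CSTB (cystatin B) acts in the cytosol. Cumulus cells surround the oocyte, feed it through gap junctions, and expand in a matrix of hyaluronan after the gonadotropin surge.

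The libraries held 7664375 to 17934916 reads on genes in oocytes and 1911600 to 5772431 in CC, so 3 reads corresponded to 0.167 to 0.391 CPM and 0.52 to 1.57 CPM, respectively. The 16 listed oocyte markers summed to 13250 to 18307 CPM in oocyte pools, and the 9 of them listed for CC summed to at most 9.97 CPM in any CC pool. Cumulus and granulosa markers summed to 13255 to 33747 CPM in CC pools and to 795 to 4446 CPM in oocyte pools. Of these markers, 3 (HAS2, STAR and GREM1) were higher in oocytes than in CC, and the oocyte sums include them. Class means in oocytes were 185 to 198 CPM for HAS2 and 344 to 409 CPM for STAR. Mitochondrially encoded transcripts made up 0.846% to 5.0% of reads in oocytes and 12.6% to 44.0% in CC, where the median shares of small, large and spontaneous pools were 23.5%, 21.4% and 15.6%. Spontaneous CC replicate 2 stood apart for these genes: it was the highest of the 17 CC pools for 9 of the 10 retained entries, compared with 4.36% of all retained CC genes. Small CC replicate 3 had the fewest reads and the 44.0% mitochondrial share, and was the lowest CC pool for 3 of the 10 entries and for 28% of all retained genes.

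**Figure D1:**
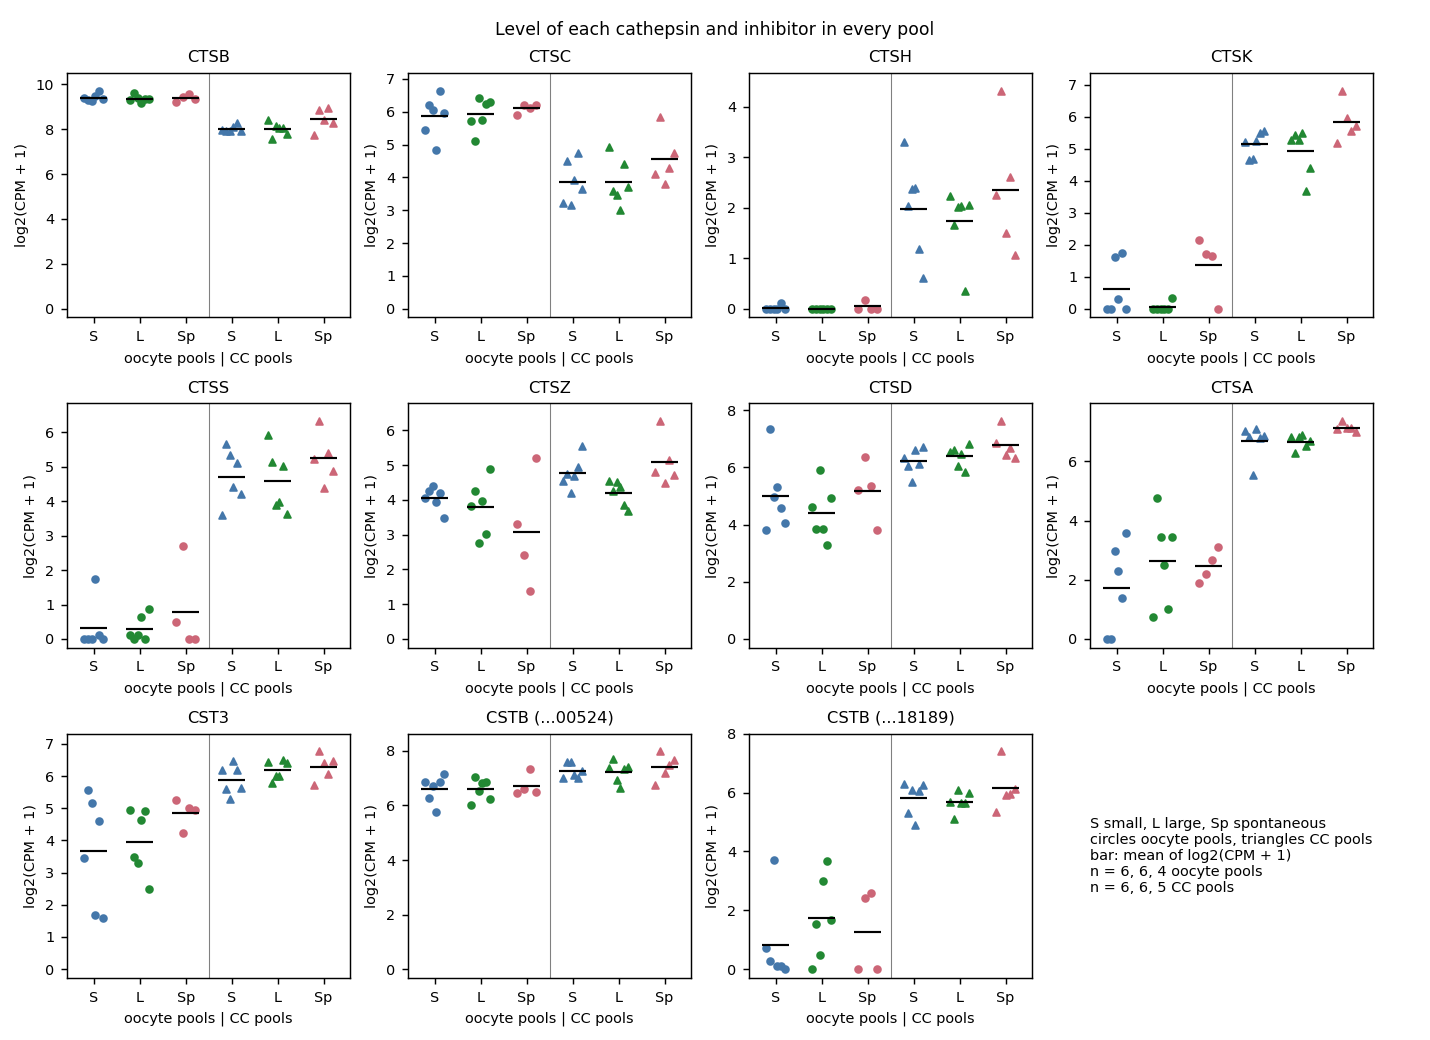
Level of each entry as log2(CPM + 1) on the y axis in every oocyte pool (circles) and CC pool (triangles), by follicle class (S small, L large, Sp spontaneous), with a bar at the mean of each group. CTSB and CTSC were higher in oocyte pools. CTSH, CTSK, CTSS and the CSTB entry ENSBTAG00000018189 were near 0 in many oocyte pools, and CTSA was at 0 in 2 of 16. The class groups overlapped in most panels.

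The first question was how cathepsins and cystatins are divided between oocyte and CC. CTSB and CTSC were more abundant in oocytes, and the other 6 entries retained in both cell types were more abundant in CC. CTSA, CTSK, CTSS and the CSTB entry ENSBTAG00000018189 had about 19 to 51 times the mean CPM in CC that they had in oocytes. This comparison used CPM recomputed over the 14980 genes listed for both cell types and a limma model with follicle class as a covariate, with log2 differences on the log2(CPM + 1) scale, oocyte minus CC. Of the 8 entries retained in both cell types, 2 were higher and 6 lower in oocytes at an adjusted p under 0.05. Passing the test was common. Across the 11431 genes tested, which were retained in either cell type and not always in both, 46% were higher and 41.3% lower in oocytes. CTSK and CTSS were retained in CC alone, so their difference was partly fixed by the filter and is given as a description, with no test. Oocyte and CC pools came from the same complexes, but the model treated the 33 pools as independent. A fit with the replicate number as a block, over small and large pools, is given where it changed a call.

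CTSB, an abundant cysteine endopeptidase and carboxydipeptidase, was the member with the most even level among oocytes. Its mean was 691 ± 76.0 CPM in oocytes (SD, n = 16) and 289 ± 81.4 CPM in CC (SD, n = 17), a log2 difference of 1.31 (SE 0.10; limma adjusted p = 2.89e-15). The lowest oocyte pool (586 CPM) was above the highest CC pool (491 CPM). All oocyte pools were above all CC pools for 23.2% of the genes tested. CTSC, also called dipeptidyl peptidase 1, activates granule serine proteases in leukocytes. Its mean was 65.4 ± 19.2 CPM in oocytes and 18.2 ± 11.96 CPM in CC, a log2 difference of 1.94 (SE 0.21; adjusted p = 6.78e-11). The CTSC ranges overlapped, at 28.2 to 102 CPM and 7.03 to 56.2 CPM, with spontaneous CC replicate 2 the highest CC pool.

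CTSK, a collagen-degrading protease best known from osteoclasts, and CTSS, which processes the invariant chain for antigen presentation, were near the limit of detection in oocytes. CTSK had no read in 9 of 16 oocyte pools and reached at most 3.56 CPM there, whereas CC pools held 11.9 to 111 CPM. CTSS had no read in 8 of 16 oocyte pools and reached at most 5.63 CPM, whereas CC pools held 11.05 to 79.7 CPM. No oocyte pool overlapped a CC pool for either gene. The size of the log2 difference depended on the pseudocount, at -4.62 for CTSK and -4.38 for CTSS with 1 CPM and at -6.79 and -6.73 with 0.1 CPM. All oocyte pools were below all CC pools for 13.1% of the genes tested. CTSK and CTSS are neighbours in the RefSeq annotation of assembly ARS-UCD2.0, with 1 coding gene, LOC112445950, between them. CTSH, an aminopeptidase, had 3 reads in all over the 16 oocyte pools and 293 reads over the 17 CC pools. Its CC level was 0.284 to 18.9 CPM, at or above 5 CPM in 3 pools, so it was not retained and not tested.

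CTSA, the serine carboxypeptidase that protects beta-galactosidase and neuraminidase in the lysosome, had a mean of 6.10 ± 6.63 CPM in oocytes (SD, n = 16) and 115 ± 27.2 CPM in CC (SD, n = 17). No oocyte pool (0 to 26.7 CPM) overlapped a CC pool (45.5 to 164 CPM), and the log2 difference was -4.52 (SE 0.32; adjusted p = 5.28e-16). CTSD, the main aspartic endopeptidase of the lysosome, was lower in oocytes by a smaller margin, with means of 38.5 and 90.8 CPM and a log2 difference of -1.56 (SE 0.26; adjusted p = 1.21e-06). Its ranges overlapped, and small oocyte replicate 2 was the highest oocyte pool at 166 CPM. CTSZ, a carboxypeptidase, had means of 15.0 and 26.9 CPM and a log2 difference of -0.92 (SE 0.27; adjusted p = 0.00212). The CTSZ difference was -0.53 with the 24 small and large pools alone, and with the replicate number as a block its adjusted p was 0.0703, the only call among the 8 that was lost under any alternative.

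The secreted inhibitor CST3 had a mean of 21.99 ± 14.2 CPM in oocytes and 70.8 ± 19.2 CPM in CC (log2 difference -1.97, SE 0.29; adjusted p = 1.18e-07). CSTB read differently by entry. The entry ENSBTAG00000000524 had means of 105 ± 29.2 CPM in oocytes and 161 ± 40.6 CPM in CC, with overlapping ranges and a log2 difference of -0.62 (SE 0.14; adjusted p = 7.41e-05). The entry ENSBTAG00000018189 had means of 2.96 ± 4.28 CPM in oocytes and 62.5 ± 31.1 CPM in CC, without overlap, and a log2 difference of -4.57 (SE 0.35; adjusted p = 7.84e-15), or -6.10 with a pseudocount of 0.1 CPM, which also moved CTSA to -5.20. Reads from similar copies of a gene may be divided between the 2 entries by the alignment, so their separate levels are uncertain. Summed over both entries, the class means were 102 to 110 CPM in oocytes and 205 to 257 CPM in CC on the deposited scale. No direction changed when CPM was rescaled by median-of-ratios factors or recomputed without mitochondrial genes, although the first reduced the CTSB difference to 0.88 and moved that of the CSTB entry ENSBTAG00000000524 to -1.04.

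**Figure D2:**
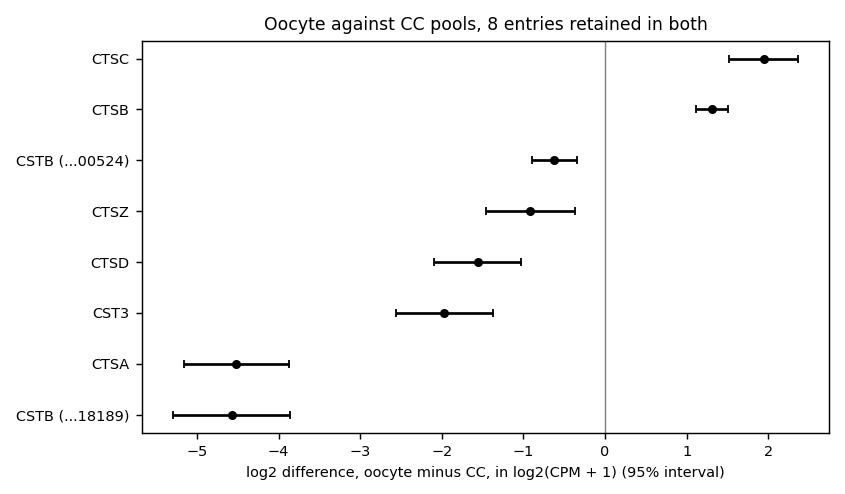
Log2 difference in log2(CPM + 1) between oocyte and CC pools (x axis, oocyte minus CC) for the 8 entries retained in both cell types (y axis), with 95% intervals from the limma model over 33 pools. CTSB (1.31) and CTSC (1.94) lie above 0, and the other 6 entries lie below 0, down to -4.57 for the CSTB entry ENSBTAG00000018189.

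Cumulus and granulosa markers in oocyte pools were set beside the low levels of the CC-enriched members there, and their part was not tested. Small oocyte replicate 3 had the highest sum of cumulus and granulosa markers among oocyte pools (4446 CPM) and also the highest level of the CSTB entry ENSBTAG00000018189 (12.1 CPM, against at most 0.649 CPM in the other 5 small pools). Its CTSA level was 6.92 CPM and its CTSK level 2.09 CPM, and it had no CTSS read. Pools with lower marker sums also held this CSTB entry. It was at 11.9 and 7.04 CPM in large oocyte replicates 5 and 4, and at 5.01 and 4.39 CPM in spontaneous oocyte replicates 3 and 2. Large oocyte replicate 6 had the next highest marker sum (4075 CPM). In it CTSK was at 0.254 CPM, CTSS at 0.845 CPM, CTSA at 9.81 CPM and the same CSTB entry at 2.20 CPM.

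The second question was whether the oocyte content of these transcripts differed with follicle class. No member met the nominal threshold of p of 0.01 or less in any of the 3 oocyte comparisons. In those comparisons 0.655% (small and large), 0.774% (small and spontaneous) and 0.943% (large and spontaneous) of the 10076 retained genes did so. With all pools included, none of the 8 retained entries reached 0.05 in limma either, and edgeR and DESeq2 called none. Of the 10076 genes, 414, 454 and 491 were under 0.05 in the same 3 comparisons. The median log2 difference of the 8 entries was 0.02 for large minus small, 0.21 for spontaneous minus small and 0.08 for spontaneous minus large oocytes. Over all genes these medians were 0.05, 0.05 and 0.01. Members higher in the first-named class numbered 4, 6 and 5 of 8.

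CTSB was nearly level across classes in oocytes, at 684 ± 87.1 CPM in small (SD, n = 6), 658 ± 72.6 CPM in large (SD, n = 6) and 670 ± 69.7 CPM in spontaneous pools (SD, n = 4). The 95% intervals of its log2 differences lay between -0.32 and 0.29 over the 3 comparisons. CTSC averaged 61.5, 62.4 and 68.02 CPM in small, large and spontaneous oocytes, and the spontaneous pools spanned 58.6 to 73.4 CPM, inside the small range of 27.3 to 98.8 CPM. The CSTB entry ENSBTAG00000000524 averaged 101, 98.0 and 108 CPM. For these 3 the order of the class means was within the spread of the pools.

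The remaining oocyte members varied widely among pools of the same class. CST3 was at 9.97, 46.7, 35.1, 2.21, 23.1 and 1.98 CPM in the 6 small pools. It was at 29.7, 10.1, 8.78, 24.0, 29.5 and 4.56 CPM in the 6 large pools, and at 36.9, 17.9, 31.3 and 29.7 CPM in the 4 spontaneous pools. The spontaneous pools lay inside the small range, and the log2 difference from small to spontaneous was 1.18 (SE 0.69; 95% interval -0.22 to 2.59). Its unadjusted limma p was 0.0430 without small oocyte replicate 3. With each single pool left out this p lay between 0.0318 and 0.237, and none met the threshold. CTSD had means of 46.9, 24.5 and 42.3 CPM in small, large and spontaneous pools, with small replicate 2 at 161 CPM and the other small pools at 13.1 to 38.6 CPM.

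CTSZ was at 10.1 to 20.2 CPM in the small oocyte pools, 5.75 to 28.5 CPM in the large pools, and 8.96, 4.39, 1.59 and 35.5 CPM in the 4 spontaneous pools. In 3 of 4 spontaneous pools CTSZ was below every small pool, while the other was above them all. The log2 difference from small to spontaneous was -0.98 (SE 0.65). It ranged from -1.68 without spontaneous oocyte replicate 4 to -0.41 without spontaneous oocyte replicate 3, and was -0.37 in edgeR and -0.38 in DESeq2. CTSA was at 0 in 2 small pools and at 25.9 CPM in large replicate 2, and its class means were 3.92, 8.66 and 4.83 CPM. CTSK, not retained in oocytes, was at 3.45, 2.29, 2.12 and 0 CPM in the 4 spontaneous pools. In the 6 large pools it was at 0.254 CPM in replicate 6 and had no read in the other 5. The exact two-sided permutation test of mean CTSK CPM between large and spontaneous oocytes gave p = 0.0333 (smallest possible 0.00476), unadjusted, and CTSK met the nominal threshold there only when no filter on low values was applied (log2 difference 1.33).

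The third question was the same in CC. Mean CPM of all 10 retained entries was higher in spontaneous CC than in either small or large CC (9 of 10 log2 differences under 1 rescaling in each comparison), and CTSZ and CTSA met the nominal threshold in limma against large CC, of which edgeR and DESeq2 called CTSZ alone. These calls did not pass adjustment over all genes, and several alternatives ended them. In bulk pools, a change in the number of cells of a type and a change in RNA per cell cannot be told apart. The shares of all retained CC genes that met the threshold were 0.813% between small and large, 2.38% between small and spontaneous, and 1.66% between large and spontaneous CC. Counts of members meeting it were 0, 0 and 2 of 10 in limma, and 0, 0 and 1 in both edgeR and DESeq2. At an unadjusted 0.05 in limma, CTSZ passed between small and large, CTSK and CTSD between small and spontaneous, and CTSZ, CTSA and CTSK between large and spontaneous CC. Of all 9712 retained CC genes, 388, 830 and 687 passed at that level in the same 3 comparisons.

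CTSZ was at 22.2, 18.2, 21.6, 19.5, 13.3 and 11.7 CPM in the 6 large CC pools, and at 27.2, 76.3, 21.4, 34.1 and 25.1 CPM in the 5 spontaneous CC pools. Of the spontaneous pools, 4 of 5 were above the highest large pool. The log2 difference, spontaneous minus large, was 0.89 (SE 0.30; limma adjusted p = 0.567, nominal p = 0.00857), and the exact permutation test of mean CPM gave p = 0.00649 (smallest possible 0.00216). Small CC pools lay between 17.3 and 45.7 CPM, a mean of 27.6 CPM, against 17.8 CPM in large and 36.8 CPM in spontaneous pools. The log2 difference from small to large was -0.58 (95% interval -1.15 to -0.01), which did not meet the threshold.

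CTSA was at 111, 76.2, 112, 117, 90.0 and 103 CPM in the large CC pools, and at 134, 164, 139, 139 and 126 CPM in the spontaneous CC pools. It was the only retained member whose pools did not overlap between the classes, which held for 0.865% of all retained CC genes. The log2 difference was 0.47 (SE 0.16; limma adjusted p = 0.567, nominal p = 0.00742), and the exact permutation test gave the smallest p possible here, 0.00216. In small CC the lowest, median and highest CTSA levels were 45.5, 114 and 136 CPM, the lowest being replicate 3. The log2 difference from small to spontaneous was 0.45 with that pool and 0.22 without it, and neither met the threshold.

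CTSK, CTSC and CTSS had differences from large CC of 0.66 to 0.91 on the log2 scale, with wide errors. CTSK was at 37.3, 42.4, 37.9, 44.3, 11.9 and 20.1 CPM in large and at 34.9, 111, 61.7, 45.4 and 50.9 CPM in spontaneous CC. Its log2 difference was 0.91 from large (SE 0.34; 95% interval 0.20 to 1.62) and 0.70 from small (SE 0.27; 95% interval 0.12 to 1.27), and neither met the threshold. CTSC had means of 14.8, 15.0 and 26.0 CPM in small, large and spontaneous CC, with spontaneous replicate 2 at 56.2 CPM and the other spontaneous pools at 13.1 to 26.0 CPM. CTSS had means of 28.5, 27.5 and 41.3 CPM, and its 3 classes overlapped over most of their range.

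CTSB averaged 259 ± 28.7 CPM in small (SD, n = 6), 259 ± 52.7 CPM in large (SD, n = 6) and 360 ± 114 CPM in spontaneous CC (SD, n = 5). The spontaneous pools were at 211, 456, 335, 491 and 305 CPM, so replicate 1 was below every small pool and replicates 2, 3 and 4 above every small pool. The log2 difference was 0.42 from small (95% interval -0.0036 to 0.84) and 0.44 from large (95% interval -0.01 to 0.88). CTSD had means of 76.1, 84.8 and 116 CPM in small, large and spontaneous CC, with log2 differences to spontaneous of 0.57 (95% interval 0.04 to 1.10) and 0.40 (95% interval -0.09 to 0.89), none past the threshold.

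No inhibitor met the threshold among CC classes. CST3 averaged 60.8, 73.2 and 79.6 CPM in small, large and spontaneous CC, and its log2 difference from large to spontaneous was 0.10 (95% interval -0.34 to 0.54). The CSTB entry ENSBTAG00000000524 averaged 155, 153 and 178 CPM, a log2 difference of 0.19 from large (95% interval -0.28 to 0.66). The CSTB entry ENSBTAG00000018189 averaged 58.7, 51.9 and 79.6 CPM, the last with replicate 2 at 169 CPM and the other 4 spontaneous pools at 39.5 to 69.2 CPM. CTSH averaged 3.70, 2.58 and 6.14 CPM, and 1 spontaneous pool held 18.9 CPM.

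**Figure D3:**
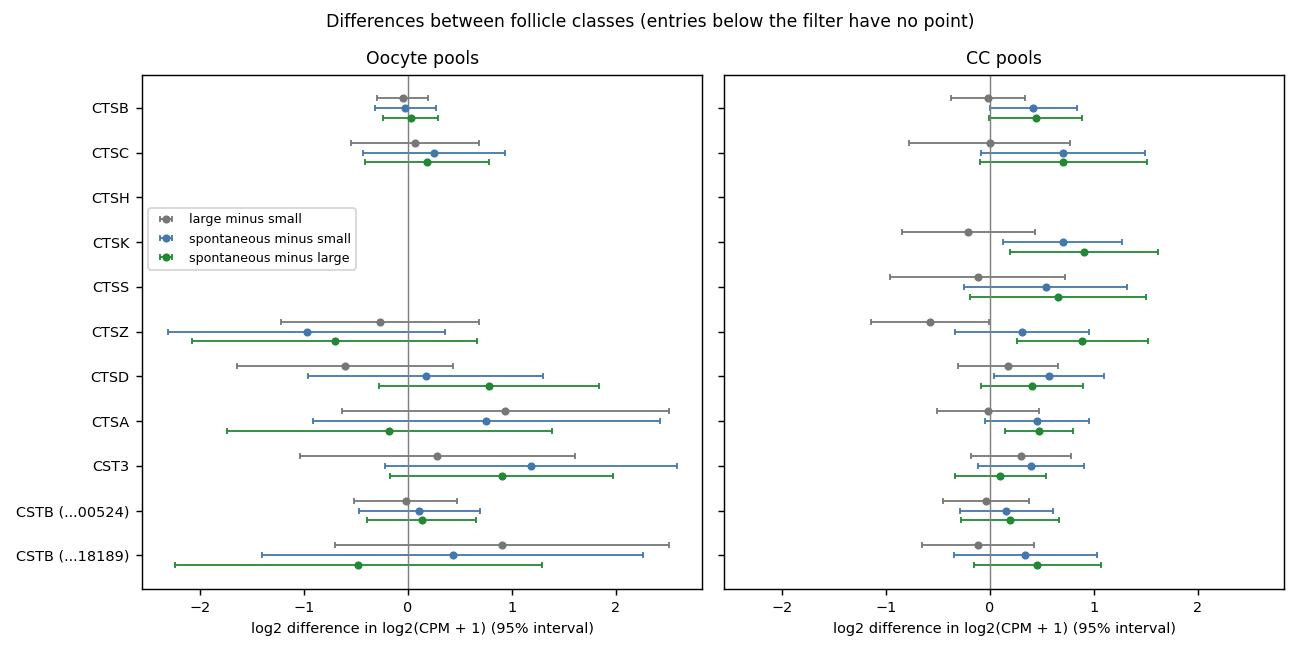
Log2 differences in log2(CPM + 1) between follicle classes (x axis) for each entry (y axis) in oocyte pools (left) and CC pools (right), with 95% intervals from limma. In CC the points for spontaneous minus small and spontaneous minus large all lie above 0 (9 of 10 with median-of-ratios scaling against large and without mitochondrial genes against small), and most intervals cross 0. In oocytes every interval crosses 0.

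Across the 10 CC entries the median log2 difference to spontaneous was 0.43 from small and 0.46 from large CC. Over all retained CC genes it was 0.16 and 0.11, and 71.9% and 65.6% of all genes were higher in spontaneous CC, so the whole scale leaned the same way, beside the lower mitochondrial share of the spontaneous pools. Relative to the median gene the members were higher by 0.27 and 0.35, and 9 of 10 were above it in each comparison. This lean was not particular to the members. The medians from small and from large CC were 0.61 and 0.28 for cumulus and granulosa markers. They were 0.28 and 0.73 for white blood cell markers, and 0.27 and 0.18 for theca markers. With median-of-ratios scaling the medians of all genes were 0.01 and 0.01 and those of the members 0.28 and 0.36, with 10 and 9 of 10 members positive. Without mitochondrial genes 9 and 10 of 10 were positive. These 2 comparisons share the spontaneous pools and are not separate evidence. Between small and large CC, 2 of 10 members were higher in large (CST3 and CTSD), with a member median of -0.03 against 0.05 over all genes.

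Spontaneous CC replicate 2 carried part of the difference. Its members lay a median of 1.34 above their CC means on the log2 scale, whereas the other 4 spontaneous pools had medians of -0.04 to 0.26. Without it, the median of the 10 members was 0.30 from small and 0.36 from large, with 10 and 9 of 10 positive, and no member met the threshold. CTSZ then differed from large by 0.59 and from small by 0.01, and CTSA from large by 0.42.

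**Figure D4:**
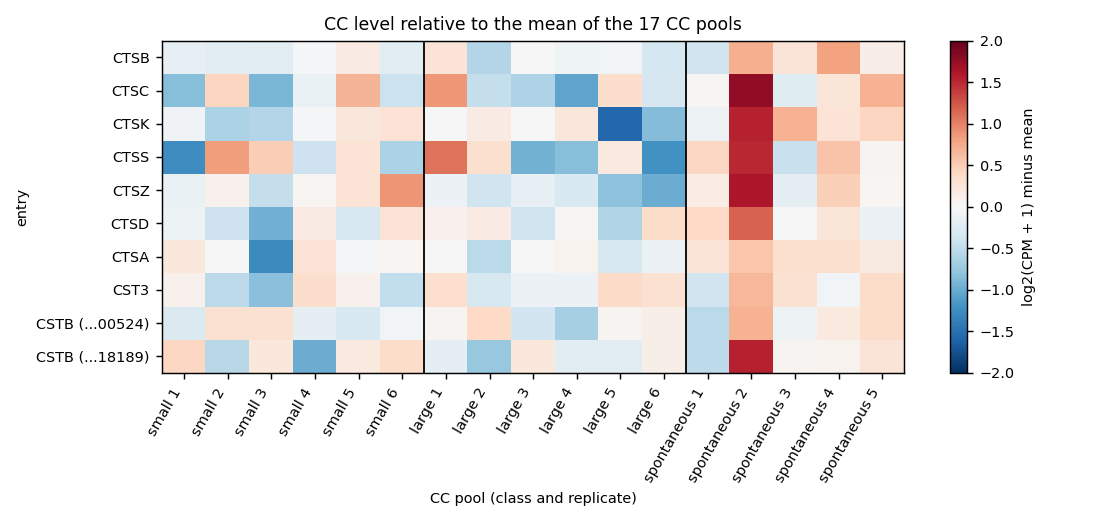
Deviation of each retained entry (rows) from its mean over the 17 CC pools (columns, by class and replicate), in log2(CPM + 1), from blue (below) to red (above). Spontaneous replicate 2 is above the mean for all 10 entries, and small replicate 3 has a median deviation of -0.53.

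The CTSZ and CTSA calls against large CC depended on other pools and on scaling as well. Both were lost with median-of-ratios scaling (0.79 and 0.37), without mitochondrial genes (0.83 and 0.41), and without large CC replicate 5 or 6 or spontaneous CC replicate 2 or 4. Without spontaneous CC replicate 1 both were lost, and CTSK (1.07) and CTSB (0.61) met the threshold in their place. CTSK alone met it without large CC replicate 2 (1.01), CTSA alone without large CC replicate 4 (0.52), and CTSZ alone without spontaneous CC replicate 3 (1.04). CTSZ alone was called by edgeR (0.96) and DESeq2 (0.96), and CTSA alone with no filter (0.47). With all 3 classes in 1 fit CTSZ and CTSK (0.91) met the threshold and CTSA did not. The direction of both was kept in every one of these fits. Between small and spontaneous CC, leaving out spontaneous replicate 1 brought CTSK (0.87) and CTSB (0.59) past the threshold.

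**Figure D5:**
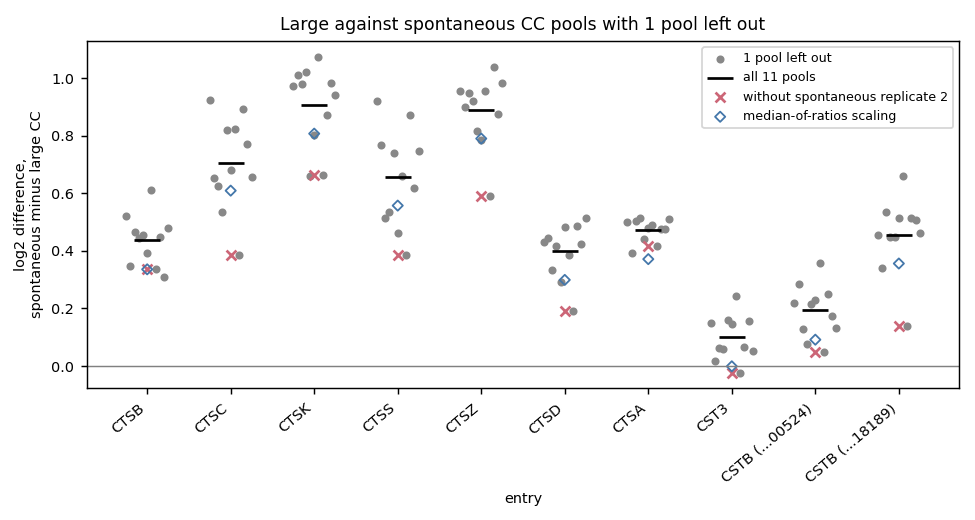
Log2 difference, spontaneous minus large CC (y axis), for each retained entry (x axis) with all 11 pools (bar), with each pool left out in turn (grey points), without spontaneous replicate 2 (cross) and with median-of-ratios scaling (diamond). CTSZ ranges from 0.59 to 1.04 and CTSA from 0.39 to 0.52 as pools are left out, and CST3 lies near 0.

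Class differences were also compared between oocyte and CC by an interaction term. No member met the threshold in any of the 3 interactions, against 1.14% (small and large), 1.35% (small and spontaneous) and 0.936% (large and spontaneous) of the 11431 genes tested. edgeR and DESeq2 were not run for this term. The only member under an unadjusted 0.05 was CTSZ, whose large to spontaneous difference in oocytes minus that in CC was -1.60 (SE 0.65; limma adjusted p = 0.983). In that interaction 530 of the 11431 genes were under 0.05. The interval of this CTSZ interaction was -2.92 to -0.28.

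Markers of other cells were set beside the CC results, since CTSS and CTSC are prominent in macrophages and other leukocytes. The 29 white blood cell markers summed to 288 to 959 CPM in small, 442 to 1980 CPM in large and 1321 to 4185 CPM in spontaneous CC. SRGN, a granule proteoglycan, made up most of this sum, at 208 to 626, 342 to 1830 and 1044 to 3928 CPM in the 3 classes. Without SRGN the remaining markers summed to 80.1 to 333, 70.5 to 362 and 112 to 461.5 CPM, which overlapped, and none of the 29 was at 0 in every CC pool. Of the 18 markers tested in CC, SRGN included, 17 were higher in spontaneous than large CC. Their median log2 difference was 0.73, against 0.11 over all genes. From small to spontaneous CC 14 of 18 were higher, with a median of 0.28 against 0.16. SRGN itself was higher in spontaneous than small CC (log2 difference 2.15, SE 0.33; limma adjusted p = 0.0220), and met the nominal threshold against large CC (1.25) and between small and spontaneous oocytes (2.37). PTPRC (CD45), which defines leukocytes, averaged 9.38, 7.18 and 8.74 CPM in small, large and spontaneous CC. CD68, a macrophage lysosomal membrane protein, met the threshold between large and spontaneous CC (log2 difference 1.31, SE 0.42; means 8.93 and 24.4 CPM). Theca markers summed to 624 to 1780, 1013 to 1669 and 1275 to 4350 CPM. Among them, INSL3 averaged 398, 360 and 483 CPM in small, large and spontaneous CC. LUM averaged 393, 392 and 476 CPM and COL1A1 186, 330 and 252.5 CPM in these classes. COL1A2 reached 2117 CPM in a spontaneous pool, and CYP17A1 was at most 0.781 CPM in any CC pool. Of the 9 theca markers tested, 6 were higher in spontaneous CC in each comparison. PDGFRA met the threshold between small and spontaneous CC (1.24, SE 0.42). Among granulosa markers, INHA, an inhibin subunit (0.89, SE 0.29), and CYP19A1, the aromatase (1.74, SE 0.58), met it between large and spontaneous CC, as CTSZ and CTSA did. VCAN, a matrix proteoglycan, met it between small and large CC (0.71, SE 0.25). The part of these cells in the cathepsin differences was not tested.

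Correlations between members are given as a description across pools, which share libraries and scaling. Among the 45 pairs of retained entries in CC the Pearson correlation of log2(CPM + 1) over 17 pools had a median of 0.43, and 43 were positive. The median over all pairs of retained CC genes was 0.097, with 62.2% positive. In oocytes the 28 pairs over 16 pools had a median of -0.05, with 13 positive, against 0.00472 and 50.7% over all pairs.

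The gene outside the list whose CC pattern was most like CTSA was HEXA, a lysosomal hexosaminidase subunit (Pearson r = 0.92, Spearman rho = 0.71, 17 pools). CTSS was most like C1QA, a complement subunit made by macrophages and 1 of the white blood cell markers (r = 0.87, rho = 0.89). The nearest genes to the other CC entries were TYRO3 for CTSC (r = 0.82), CCND3 for CTSK (r = 0.84), SH3GLB1 for CTSZ (r = 0.80), TMEM159 for CTSD (r = 0.82), FAM136A for CTSB (r = 0.83) and ECD for CST3 (r = 0.82). For CSTB they were FCER1G for the entry ENSBTAG00000000524 (r = 0.70) and AASDHPPT for ENSBTAG00000018189 (r = 0.82). In oocytes, over 16 pools, they were BLCAP for CTSB (r = 0.73), SELENON for CTSC (r = 0.78), RBMX2 for CTSZ (r = 0.81), SUMF1 for CTSD (r = 0.73), SLC12A8 for CTSA (r = 0.83) and LAS1L for CST3 (r = 0.86). FEN1 (r = 0.83) and KDM5B (r = 0.86) were nearest to the CSTB entries ENSBTAG00000000524 and ENSBTAG00000018189. Each is the highest of the correlations with all retained genes that have a symbol, over few pools.

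Other genes of the pathway were described by list. Among the other cathepsins and legumain, 0 of 3 tested in oocytes and 0 of 4 in CC met the threshold in any class comparison, and in CC their median log2 difference to spontaneous was 0.38 from small and 0.48 from large. Among other protease inhibitors none of 2 in oocytes and of 4 in CC met it, with CC medians of 0.07 and 0.07. Of the 9 partners and sorting genes in CC, M6PR, the cation-dependent mannose 6-phosphate receptor, was higher in spontaneous than small CC (log2 difference 0.74, SE 0.18; means 174 and 106 CPM) without overlap (160.3 to 184 and 70.6 to 147 CPM). Between these classes 1.16% of all retained CC genes did not overlap. In oocytes M6PR averaged 57.6, 51.4 and 28.4 CPM in small, large and spontaneous pools. IGF2R, the other mannose 6-phosphate receptor listed, averaged 74.9, 93.1 and 76.4 CPM in the same classes of CC. The list had 7 of 9 genes higher in spontaneous CC in each comparison, with medians of 0.22 from small and 0.27 from large. GLB1, the beta-galactosidase that CTSA protects, was higher in spontaneous than large CC (log2 difference 0.89, SE 0.22; means 57.4 and 30.7 CPM), with ranges that overlapped at 38.0 to 72.2 and 21.0 to 42.4 CPM. NEU1, the neuraminidase, averaged 16.8, 17.1 and 17.7 CPM in small, large and spontaneous CC and did not meet the threshold. GLB1, CD68 and CTSZ belong to a lysosome gene list that the study drew from these same pools, so their direction here is not independent evidence.

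Among the 9 tested CC genes for lysosome regulators and membrane proteins, LAMP2, a major membrane glycoprotein of the lysosome, was higher in spontaneous than small CC (log2 difference 0.54, SE 0.16; 324 to 391 CPM against 181 to 309 CPM). Its relative LAMP1 was higher in spontaneous than large oocytes (log2 difference 1.06, SE 0.30; 123 to 162 CPM against 39.1 to 124 CPM), the only one of 10 in oocytes. Of 24 other lysosomal hydrolases and related enzymes in CC, DNASE2, the acid endonuclease, was higher in spontaneous than large CC (log2 difference 0.75, SE 0.25; means 39.2 and 24.0 CPM). In the small to spontaneous comparison 23 of the 24 were positive, with a median of 0.35 against 0.16 over all genes, and none met the threshold. From large to spontaneous 20 of 24 were positive, with a median of 0.23 against 0.11. All of these list calls had limma adjusted p from 0.262 to 0.853.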

How the data were processed

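RNA from each pool was amplified with the Ovation RNA-Seq System V2, sequenced as single-end reads, aligned by the authors to bovine UMD3.1 with Hisat2 and counted with featureCounts on Ensembl genes; strand was not stated. The deposited values are CPM per gene and pool, in separate oocyte and CC tables. Divided by the CPM of 1 read, 100% of values were whole numbers (tolerance 0.05), so whole reads were recovered for edgeR and DESeq2. No column was left unused (0).

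Pools were grouped by their labels. Genes reaching 5 CPM in 4 or more oocyte pools, or in 5 or more CC pools, were tested for each pair of classes with limma (3.58.1, R 4.3.3; trend) on log2(CPM + 1), two-sided. The threshold was nominal p of 0.01 or less in limma alone, whereas the study required this level in edgeR and DESeq2 together. For oocyte comparisons with small pools it also had to hold without small oocyte replicate 3. Benjamini-Hochberg values cover all genes tested. Exact permutation tests compared mean CPM (Python 3.11.15). Oocyte and CC were compared in 1 table, with CPM recomputed over shared genes. Alternatives changed the pseudocount, filter, scaling, samples, replicate block and tool (edgeR 4.0.16, DESeq2 1.42.0). On simulated reads, limma recovered 100% of 200 simulated 4-fold changes in large against spontaneous CC (9639 genes), with 1.11% of unchanged genes called. The member log2 differences in that comparison were smaller, from 0.10 (CST3) to 0.91 (CTSK). The simulated spread was the same fixed setting for every gene and smaller than that of several members. In spontaneous CC the SD was 10.1% (CTSA) to 67.4% (CTSC) of the mean among the retained entries. Recovery of changes of that size, or at the larger of these spreads, was not tested.

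Named genes were all members, any gene of the related pathway lists that met the threshold in a class comparison, and the gene most correlated with each member. The cell type markers PTPRC, SRGN, CD68, PDGFRA, INSL3, LUM, COL1A1, COL1A2, CYP17A1, INHA, CYP19A1, VCAN, HAS2, STAR and GREM1 were named after their values were seen. So were IGF2R and NEU1 of the pathway lists. Members and lists were chosen with earlier results of these data known. Endothelial markers summed to 97.6 to 172 CPM in oocytes and 7.38 to 73.8 CPM in CC, and red blood cell markers to at most 0.613 and 4.98 CPM. Levels are not compared between genes, because transcript lengths were not used here. Coordinates and sequences are not given, since the reference table used here follows another assembly.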

Additional observations from a re-analysis of the deposited data

Results flagged for a closer look

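In 54 groups of pools (each retained entry in each class and cell type), 7 had 1 pool farther from the others than Dixon's 95% limit, where chance gives about 1 in 20. In oocytes these were CTSD in small replicate 2 (161 CPM, next 38.6 CPM), the CSTB entry ENSBTAG00000018189 in small replicate 3 (12.1 CPM, next 0.649 CPM), CTSA in large replicate 2 (25.9 CPM, next 9.87 CPM) and the CSTB entry ENSBTAG00000000524 in spontaneous replicate 3 (160 CPM, next 96.2 CPM). In CC they were CTSA in small replicate 3, which was low (45.5 CPM, next 110 CPM), and both CTSZ (76.3 CPM, next 34.1 CPM) and the CSTB entry ENSBTAG00000018189 (169 CPM, next 69.2 CPM) in spontaneous replicate 2. Small oocyte replicate 3 had the highest sum of cumulus and granulosa markers of the oocyte pools, and small CC replicate 3 the highest mitochondrial share of the CC pools. The part of these in the flagged values was not tested.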

How the results depend on the processing

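Under alternatives other than leaving out a pool, 66 counts of members stayed within 1.5 times the main count and 7 did not. The 7 were large against spontaneous oocytes, where no filter gave 1 member (CTSK), and large against spontaneous CC, where the count of 2 became 1 with no filter, edgeR or DESeq2 and 0 with median-of-ratios scaling, without mitochondrial genes or with a replicate block. With single pools left out, 0 to 2 members were called there, 0 to 2 in small against spontaneous CC, and 0 in the other class comparisons. No member past the threshold changed sign. All 54 class means stayed within 1 SD under median-of-ratios scaling. Same-numbered pools of different classes had correlated deviations of -0.19 to 0.22, and in no class comparison was more than 1 number over 0.1, so the numbers were not taken to pair classes. Same-numbered oocyte and CC pools, which the study drew from the same complexes without the labels tying the numbers, had -0.04 to 0.08. With the replicate block CTSZ differed by 0.78 and CTSA by 0.48, neither past the threshold. Between oocyte and CC the block changed no direction and ended the call of CTSZ alone. Depth limits CTSH in CC and CTSH, CTSK and CTSS in oocytes, whose levels lie near the 3-read floor in many pools.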
